A study of Mus musculus with 3 samples.

Results

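The untreated wells of replicate 2 were compared with the untreated wells of replicates 1 and 3 of a single-cell RNA experiment on RAD21-AID mouse ES cells. A control well was taken if the deposited annotation calls it control or positive and if more than 2600 genes were detected in it, which left 371 wells on 4 plates of replicate 2 (named A to D here, in order of their plate number), 168 wells on 2 plates of replicate 1 (E and F) and 85 wells on 1 plate of replicate 3 (G), of 1335 wells past the same limit on 16 plates. Every culture was of the JM8.N4 line of the C57BL/6N strain, in which both copies of RAD21, a subunit of the cohesin ring, carry a degron, and none of the control wells received auxin. Per the labels, all 3 replicates grew without feeder cells on gelatin in 15% serum with 1000 units of LIF and 2 inhibitors, 1 μM PD0325901, which blocks MEK, and 3 μM CHIR99021, which blocks GSK3. The wells were counted by Smart-SCRB, in which a well barcode and a molecular identifier (UMI) tag each captured transcript, and counts were summed per plate and divided by the plate's total and brought to a common scale, as CPM.

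Mouse ES cells can be held in a naive state, like the epiblast before implantation, or move through a formative towards a primed state, like the epiblast around and after implantation. Naive cells express Nanog, Klf4 and Zfp42 (Rex1), and Otx2 marks the exit from that state. LIF acts through JAK and STAT3, MEK inhibition holds down ERK signalling, and GSK3 inhibition stabilises β-catenin. Some targets of these pathways, such as Klf4, Tfcp2l1, Dusp6 and Lef1, are also naive or formative genes. Their levels therefore do not tell cell state apart from the response to the medium.

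Nanog, Klf4 and Zfp42 were lower, and Otx2 was higher, in all 4 plates of replicate 2 than in any plate of replicates 1 and 3. Nanog (ENSMUSG00000012396, chromosome 6 from 122707489 to 122714633 of mm10), a homeodomain factor of the naive network, was at 61.6, 57.9, 57.2 and 57.8 CPM in plates A to D, against 488.5 and 502.1 CPM in the plates of replicate 1 and 525.0 CPM in replicate 3. Klf4 (chromosome 4 from 55527143 to 55532466), a Krüppel-like factor downstream of LIF, was at 2.79, 4.22, 1.96 and 2.04 CPM, against 128.5, 151.2 and 72.7 CPM in plates E, F and G. The ranges of the sides do not meet for either gene, and the plates of replicate 2 lay close to one another for Nanog. Zfp42 (chromosome 8 from 43295063 to 43306980), a zinc finger gene of naive cells, was at 82.6, 91.9, 82.4 and 77.0 CPM, against 279.6, 270.9 and 183.5 CPM. Otx2 (chromosome 14 from 48657677 to 48673819), a homeodomain factor of the epiblast on its way out of the naive state, was at 184.3, 184.8, 182.0 and 190.8 CPM, against 11.7, 15.5 and 4.29 CPM. Plate G was the lowest plate of the other side for Otx2, Klf4 and Zfp42 and the highest for Nanog.

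**Figure D1:**
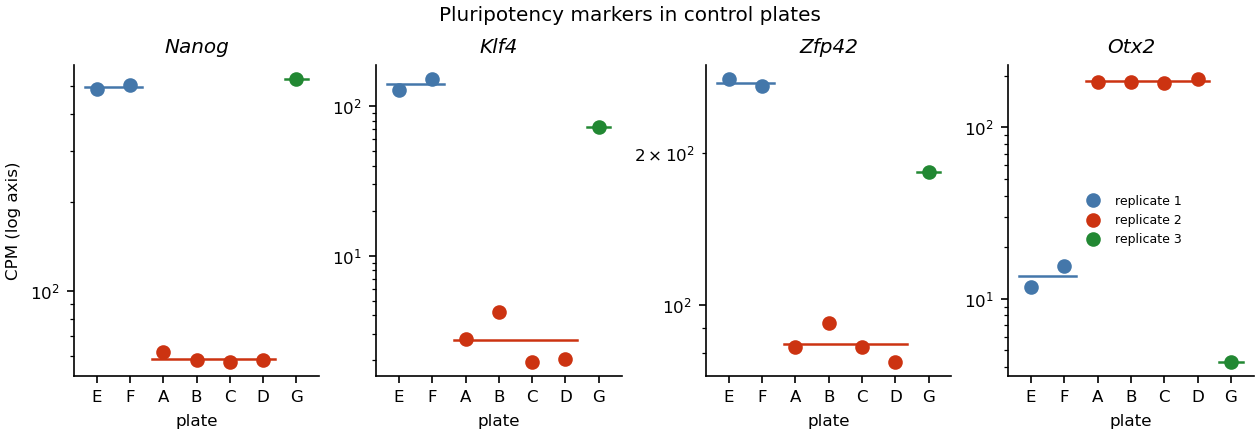
CPM of the 4 markers (log axes, a panel each) in the 7 control plates, with replicate 1 in blue, replicate 2 in red, replicate 3 in green and a line at each replicate's mean. Nanog of the replicate 2 plates lies between 57.2 and 61.6 CPM and Otx2 between 182.0 and 190.8 CPM, with no plate of the other replicates in between.

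By edgeR's quasi-likelihood test of the 4 plates against the 3, with Benjamini-Hochberg adjustment over 16641 genes, the log2 fold change of Nanog was -3.35 (standard error 0.133, adjusted p = 1.43e-05). It was -5.70 for Klf4 (standard error 0.446, adjusted p = 0.000192 from edgeR), -1.83 for Zfp42 (0.240, adjusted p = 0.00181 from edgeR) and 3.82 for Otx2 (0.459, adjusted p = 0.00117 from edgeR). With the replicate as a random block in limma, the adjusted p was 3.25e-05 for Nanog, 0.0186 for Klf4, 0.0193 for Zfp42 and 0.00118 for Otx2. Nothing in the sources used here says that the plates of a replicate came from separate cultures, so these p-values rest on the spread between plates, which on the 3-plate side includes the difference between replicates 1 and 3. What is particular to replicate 2 cannot be told apart from what is particular to its culture, sequencing run or date.

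Replicate 1 differs from the other replicates in a way that is seen in the counts themselves. Replicate 1 was sequenced on another instrument and with other barcode sets than replicates 2 and 3, which share both. There were 133 genes above 20 CPM in replicate 1 but under 0.5 CPM in every plate of replicates 2 and 3, and 99.2% of those with an annotation overlap another gene on their own strand, against 23.7% of all genes above 20 CPM. Sox2 is among them, at 111.7 and 192.4 CPM in replicate 1 and 0 CPM in each of the other control plates, and Pou5f1 (Oct4) stood at 280.4 and 267.1 CPM in replicate 1, 12.5 CPM in replicate 3 and 7.50 to 9.27 CPM in replicate 2. A further 60 genes were above 20 CPM in replicates 2 and 3 and under 0.5 CPM in every plate of replicate 1. Whether the reads of replicate 1 were assigned to genes by other rules was not tested, and no state of the cells is read from Sox2 or Pou5f1 here. The ranges of the other side given below therefore always include plate G, and for the main lists the calls that were at least 2-fold away from each of the other replicates are counted as well.

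Depth differs as well. The kept wells of replicate 2 had a median of 142286 to 155806 UMIs per plate, against 98360 and 125717 in replicate 1 and 73980 in replicate 3, and the plate sums held 6064936 to 12323518 mouse UMIs. Mitochondrially encoded transcripts made up 2.24 to 2.67% of the sums in replicate 2, 4.84 and 4.87% in replicate 1 and 1.83% in replicate 3.

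Across genes, a gene was called where the adjusted p was under 0.05, the fold change above 2 and the CPM ranges of the sides did not overlap. Of 16641 genes tested, 1946 (11.7%) were called, 859 (5.16%) higher and 1087 (6.53%) lower in replicate 2, and 1462 of them (75.1%, or 8.79% of the genes tested) were at least 2-fold away from each of replicates 1 and 3, 729 higher (4.38%) and 733 lower (4.4%). The CPM ranges of the sides did not overlap in 32.1% of the genes tested. With the replicate as a random block limma called 457 (2.75%), 184 higher (1.11%) and 273 lower (1.64%). With the replicate sums as units, 1 against 2, edgeR called 0. There 607 genes had an unadjusted p below 0.05 and the lowest adjusted p was 0.53. With replicate 1 alone as the other side, that is without plate G, edgeR called 7347 genes. With replicate 3 alone the other side is 1 plate, so no count of calls is given. Leaving out 1 plate of replicate 2 gave 1246 to 1328 calls, of which 473 to 533 were higher, and leaving out plate E gave 569 higher. Between replicate sums, 21.3% of the 10091 genes above 10 CPM in at least 1 replicate were more than 2-fold apart in replicate 2 over 3, 35.4% in 2 over 1 and 31.5% in 3 over 1. Log2 CPM of the plates of replicate 2 correlated with one another at Pearson's r of 0.981 to 0.985 over these genes, and with plate G at 0.867 to 0.873. With the plates of replicate 1, r was 0.661 to 0.688 for replicate 2 and 0.732 to 0.739 for plate G. By this measure plate G lay nearer to replicate 2 than to replicate 1. These values are a description over genes that are not independent.

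Most naive genes were called lower by edgeR, though fewer with scaling by spike-in RNA. Of the 24 naive genes tested, 15 were called lower and 0 higher, 12 of them more than 2-fold against each other replicate, and the median log2 fold change was -1.57 against 0.10 over all genes tested. The sum over the list was 4840 to 5677 CPM in replicate 2, 11643 and 12445 CPM in replicate 1 and 10567 CPM in replicate 3, with Dppa5a, an RNA-binding protein of pluripotent cells, as its largest member at 3144 to 3838 CPM in replicate 2 and 6308 to 8187 CPM in the others. limma with the block called 12 of these genes. Tfcp2l1, a STAT3-induced factor of the naive network, was at 3.61, 1.46, 5.38 and 5.95 CPM in replicate 2 and at 252.8, 245.5 and 299.8 CPM in plates E, F and G (log2 fold change -6.25, standard error 0.399, adjusted p = 9.54e-05 from edgeR). Tbx3, a T-box factor that upholds Nanog, was at 0.568 to 2.77 CPM against 110.0 to 129.4 CPM. Prdm14, which represses the de novo methyltransferases and FGF signalling, was at 3.83 to 9.43 CPM against 104.1 to 115.7 CPM. Klf5 (43.8 to 95.5 against 291.9 to 312.0 CPM) and Fbxo15 (69.1 to 130.3 against 213.4 to 259.7 CPM) were lower by smaller folds. Tdgf1 (Cripto), the Nodal co-receptor, was not called, at 583.2 to 703.3 CPM in replicate 2 and 637.1 to 646.2 CPM in the others. Klf2 was not called either, since plate A at 291.0 CPM lay above plate E at 280.9 CPM. Dppa4, which was not called and is named after its values were seen, lay the other way at 204.6 to 232.6 CPM against 99.4 to 124.5 CPM.

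Formative and primed genes were called in the other direction only. Of 22 tested, 12 were called higher and 0 lower, all 12 of them more than 2-fold against each other replicate, with a median log2 fold change of 2.19, and limma with the block called 10 of them. The sum over the list was 2728 to 3074 CPM in replicate 2 against 333.4 and 364.3 CPM in replicate 1 and 550.1 CPM in replicate 3. Dnmt3b, a de novo DNA methyltransferase that is low in naive cells, was at 592.9, 589.3, 594.4 and 655.9 CPM, against 31.5, 30.9 and 49.1 CPM (log2 fold change 3.84, standard error 0.134, adjusted p = 1.43e-05 from edgeR). Dnmt3a, the other de novo methyltransferase, was at 582.6, 679.9, 655.7 and 626.5 CPM, against 15.1, 8.21 and 36.3 CPM. Both enzymes were at similar levels in all 4 plates. Lef1, a DNA-binding partner of β-catenin that rises with formative pluripotency, was at 292.9 to 322.0 CPM against 2.14, 2.08 and 12.5 CPM (log2 fold change 5.73, standard error 0.545, adjusted p = 0.000404 from edgeR). Trh, which encodes the precursor of thyrotropin-releasing hormone, was at 426.0 to 667.4 CPM against 99.4 to 121.0 CPM. Otx2, Fgf5, Pou3f1, Sox11, Lin28b, Sema6a, Dusp6 and Car14 were the other members called. Sox4 had 40.0 to 51.3 CPM in replicate 2 but 12.4, 30.2 and 0.495 CPM in the others and was not called (adjusted p = 0.368 from edgeR), and Etv5, an ETS factor downstream of FGF, was at 147.9 to 181.3 CPM within the 89.1 to 227.4 CPM of the other side (adjusted p = 0.977 from edgeR).

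**Figure D2:**
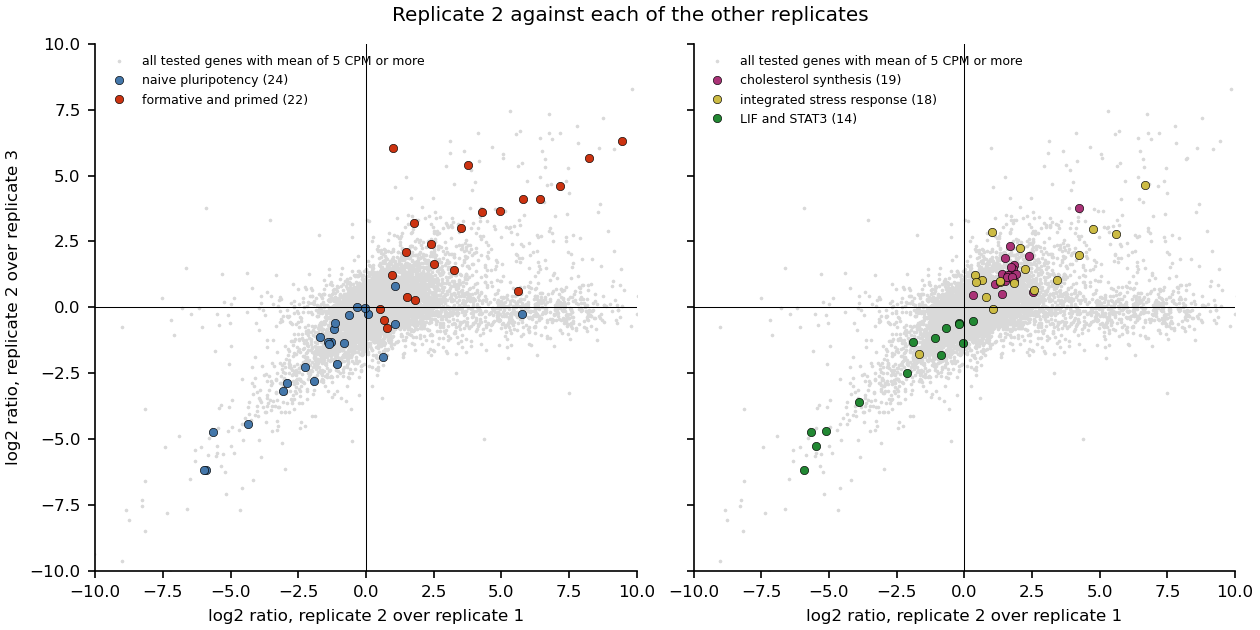
Log2 ratio of replicate 2 over replicate 1 (x) and over replicate 3 (y) of each replicate's summed counts. Grey points are tested genes with a mean of 5 CPM or more, with naive and formative members on the left and cholesterol, stress response and STAT3 members on the right. The formative median is 2.87 against replicate 1 and 2.70 against replicate 3, the naive median is -1.22 and -1.34, and grey points spread along the x axis alone mark genes on which replicate 1 stands apart from both others.

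Genes that naive and primed cells share were called in both directions. Utf1, a chromatin-bound factor of pluripotent cells, was at 172.9 to 206.0 CPM against 25.5 to 52.1 CPM (log2 fold change 2.10, standard error 0.168, adjusted p = 0.000208 from edgeR). Lin28a, which blocks let-7 maturation, was at 32.5 to 39.3 CPM against 8.46 to 9.73 CPM. L1td1, an RNA-binding protein, was at 988.2 to 1108 CPM against 560.6 to 631.1 CPM, a difference below the 2-fold limit. Of the 11 genes of this list tested, 3 were called higher and 2 lower (1 and 0 with the block in limma), and neither Pou5f1 nor Nodal, the lower ones, was 2-fold away from replicate 3.

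Targets of the ERK pathway, which PD0325901 is used to hold down, were mostly higher where they were called. Of 19 tested, 7 were called higher and 2 lower, with a median log2 fold change of 0.89, and limma with the block called 3, all higher. Against each other replicate 7 were 2-fold higher and 1 was 2-fold lower. Egr1, an immediate early zinc finger gene, was at 57.1, 44.1, 44.2 and 48.4 CPM, against 0.834, 0 and 0.330 CPM (log2 fold change 6.71, standard error 0.649, adjusted p = 0.000436 from edgeR). Dusp6, the phosphatase that ERK induces against itself, was at 41.5, 55.1, 59.3 and 53.7 CPM, against 4.41, 4.78 and 6.43 CPM (log2 fold change 3.12, standard error 0.208, adjusted p = 0.000109 from edgeR). Neither gene came near the level of replicate 2 in any other plate. Ccnd1, cyclin D1, was at 126.0 to 160.3 CPM against 40.9 to 59.4 CPM, and Spred1, an inhibitor of RAS and RAF, at 10.6 to 15.7 CPM against 3.53 to 5.12 CPM. Spry2, another feedback inhibitor, went the other way at 7.66 to 11.7 CPM against 17.6 to 29.4 CPM, as did Junb at 2.19 to 5.63 CPM against 15.7 to 22.1 CPM. Ier2 was at 430.4 to 481.6 CPM within the 403.0 to 547.3 CPM of the other side, so the list did not change as one.

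LIF and STAT3 genes were lower where they were called. Of 14 tested, 8 were called lower and 0 higher, 7 of them more than 2-fold against each other replicate, and the sum over the list was 120.1 to 133.5 CPM in replicate 2 against 892.8 to 935.0 CPM in the 3 other plates. limma with the block called 5 of the 8, and its adjusted p for Junb was 0.076. Pim3, a kinase induced by STAT3, was at 33.5 to 40.7 CPM against 79.2 to 82.3 CPM (log2 fold change -1.36, standard error 0.159, adjusted p = 0.00102 from edgeR). Stat3 itself, Socs3, Bcl3, Junb, Klf4 and Tfcp2l1 were also among the members called. The receptor chain Il6st and the kinase Jak1 were not called, at 4.63 to 15.3 and 10.0 to 17.9 CPM in replicate 2 and 11.8 to 22.2 and 17.1 to 22.4 CPM in the others. Of 11 genes of the BMP pathway, 3 were called lower, Id3 at 10.1 to 12.3 CPM against 63.8 to 161.7 CPM, Id1 at 2.20 to 6.74 CPM against 18.2 to 24.9 CPM, and Msx2 at 0.574 to 2.28 CPM against 4.62 to 10.2 CPM. With the block in limma only Id3 of these was called, with an adjusted p of 0.0853 for Id1 and 0.202 for Msx2.

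Targets of β-catenin, which CHIR99021 is used to raise, were called in both directions. Of 15 tested, 6 were lower and 2 higher, and limma with the block called 1 lower and 2 higher. Against each other replicate 5 were 2-fold lower and 2 were 2-fold higher. Cdx1, a caudal homeobox gene, was at 0.328, 1.79, 0.245 and 0.408 CPM, against 256.6, 395.1 and 145.9 CPM (log2 fold change -8.86, standard error 0.730, adjusted p = 0.000234 from edgeR). Sp5, a zinc finger gene that β-catenin switches on directly, was at 0.738, 0.162, 0.408 and 0.0815 CPM, against 18.4, 11.8 and 23.6 CPM. Dkk1, a secreted Wnt inhibitor, was at 0.492, 0.0812, 0 and 0 CPM, against 11.9, 14.1 and 9.07 CPM. With the block in limma the adjusted p was 0.0718 for Cdx1, 0.0495 for Sp5 and 0.0671 for Dkk1. All 3 genes were at or near the limit of counting in replicate 2 and present on every plate of the other side. Lef1 and Ccnd2, cyclin D2 (47.1 to 90.0 CPM against 1.15 to 2.26 CPM), were the members called higher. The upstream regions of Sp5 and Dkk1, which were low, and of an internal start of Lef1, which was high, are shown because they hold the core word of TCF and LEF sites, CTTTGA, marked in capitals on either strand. RefSeq gives them in GRCm38.p6 at chr2:70474673-70474922 (plus strand), chr19:30549497-30549746 (minus strand) and chr3:131156044-131156293 (plus strand), each as the 250 bases before the RefSeq start. GENCODE places the start of Dkk1 at 30549665, inside the region shown, so part of that region lies within the gene there.
Sp5: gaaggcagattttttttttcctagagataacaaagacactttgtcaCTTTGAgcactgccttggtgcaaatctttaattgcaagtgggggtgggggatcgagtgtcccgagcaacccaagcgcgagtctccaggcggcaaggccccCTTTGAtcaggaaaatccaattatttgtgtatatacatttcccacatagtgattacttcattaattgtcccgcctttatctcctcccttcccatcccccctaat
Dkk1: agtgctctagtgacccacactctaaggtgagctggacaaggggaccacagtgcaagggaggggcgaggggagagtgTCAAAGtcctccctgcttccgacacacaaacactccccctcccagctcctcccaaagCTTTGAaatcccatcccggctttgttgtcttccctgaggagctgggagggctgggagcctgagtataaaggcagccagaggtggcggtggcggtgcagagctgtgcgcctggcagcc
Lef1: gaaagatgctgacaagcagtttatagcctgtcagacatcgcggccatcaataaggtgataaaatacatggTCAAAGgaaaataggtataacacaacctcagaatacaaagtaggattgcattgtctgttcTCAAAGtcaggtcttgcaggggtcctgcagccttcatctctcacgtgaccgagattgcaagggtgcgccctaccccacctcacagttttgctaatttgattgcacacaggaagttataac
CTTTGA was searched on both strands of the 250 bases before each start and overlaps no other motif searched. It was in 6 of the 12 Wnt list genes that matched the RefSeq table and in 15.8% of all 27025 genes there. A match is not a bound site, and the genes shown with a match were called in both directions.

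**Figure D3:**
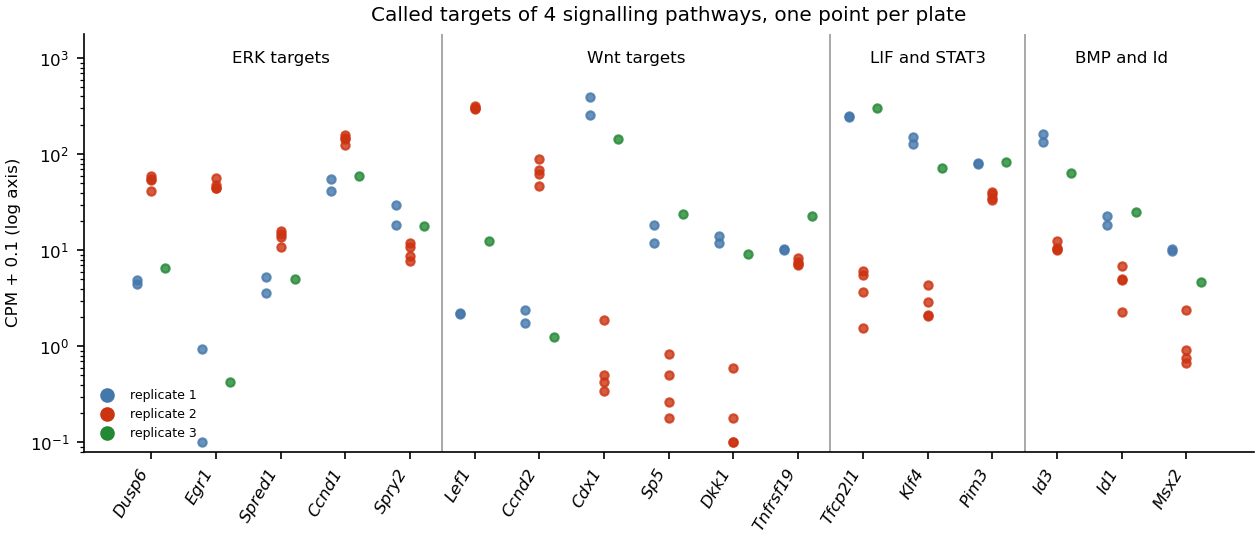
CPM + 0.1 (log axis) of called targets of the ERK, Wnt, LIF and STAT3, and BMP pathways in the 7 control plates, a point per plate, with replicate 1 in blue, replicate 2 in red and replicate 3 in green. Egr1 and Dusp6 of replicate 2 lie above, and Cdx1, Sp5, Dkk1, Tfcp2l1 and Klf4 below, every plate of the other replicates.

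The enzymes of cholesterol synthesis gave the highest share of edgeR calls in 1 direction among the lists of 5 or more tested genes, though not of limma's calls with the block. They are switched on together by SREBP2 when sterol in the cell is low. Of 19 tested, 15 were called higher and 0 lower, 14 of them more than 2-fold against each other replicate, and the median log2 fold change was 1.34, and limma with the block called 8 of them. The sum over the list was 2460 to 2830 CPM in replicate 2 against 1014 and 850.7 CPM in replicate 1 and 1094 CPM in replicate 3. Msmo1, a sterol demethylase, was at 581.5, 623.6, 724.4 and 610.2 CPM, against 184.4, 176.8 and 209.6 CPM (log2 fold change 1.51, standard error 0.127, adjusted p = 0.000243 from edgeR). Hmgcs1, which makes HMG-CoA, was at 375.5 to 444.7 CPM against 103.7 to 183.7 CPM, Sqle, the squalene epoxidase, at 153.4 to 189.3 CPM against 48.9 to 69.1 CPM, and Insig1, the sterol-responsive anchor of SREBP in the endoplasmic reticulum, at 198.4 to 234.1 CPM against 56.1 to 92.3 CPM. The plates of replicate 2 lay above every other plate for each of these genes. Fdft1, the squalene synthase, was higher by a log2 fold change of 0.81, under the limit (adjusted p = 0.00642 from edgeR), and Sc5d differed by 0.10 (adjusted p = 0.747 from edgeR). The region upstream of Hmgcs1 is shown for the sterol-element word TCACNCCAC, in capitals (RefSeq, GRCm38.p6, chr13:119690101-119690350, plus strand, the 250 bases before the start).
Hmgcs1: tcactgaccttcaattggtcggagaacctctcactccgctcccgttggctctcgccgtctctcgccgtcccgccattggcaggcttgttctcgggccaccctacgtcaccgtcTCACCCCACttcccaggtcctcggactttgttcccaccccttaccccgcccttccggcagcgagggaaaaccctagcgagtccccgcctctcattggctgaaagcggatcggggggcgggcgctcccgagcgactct
On either strand this word was in 1 of the 12 cholesterol genes that matched the table and in 1.22% of all genes there, and it overlaps no other motif searched.

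Genes of the integrated stress response, which ATF4 induces when amino acids run short or protein folding fails, were called higher in 8 and lower in 1 of 18 tested, with 6 and 1 of them 2-fold away from each other replicate, and limma with the block called 5 higher and 1 lower. Chac1, which degrades glutathione, was at 100.7, 102.2, 112.6 and 91.9 CPM, against 1.91, 0.104 and 3.96 CPM (log2 fold change 5.61, standard error 0.640, adjusted p = 0.000891 from edgeR). Trib3, a pseudokinase, was at 109.2 to 137.4 CPM against 6.23 to 30.0 CPM, and Mthfd2, a mitochondrial folate enzyme, at 609.1 to 751.6 CPM against 134.4 to 237.6 CPM. Asns, the asparagine synthetase and itself an ATF4 target, went the other way at 324.1 to 409.0 CPM against 1139 to 1274 CPM (log2 fold change -1.96, standard error 0.140, adjusted p = 0.000143 from edgeR). The amino acid carrier subunit Slc3a2 missed the 2-fold limit at a log2 fold change of 0.99.

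Among glycolysis and glucose transport genes, 7 of 23 were called higher and 2 lower, with 5 and 2 of them 2-fold away from each other replicate, and limma with the block called 6 higher and 1 lower. The transporters changed in opposite directions. Slc2a1 (GLUT1) was at 150.1 to 210.6 CPM against 46.3 to 62.5 CPM (log2 fold change 1.50, adjusted p = 0.00153 from edgeR), and Slc2a3 (GLUT3) was at 238.9 to 307.5 CPM against 524.7 to 812.0 CPM (-1.50, adjusted p = 0.000377 from edgeR). Eno1, the enolase, was at 1110 to 1237 CPM against 363.2, 385.2 and 667.1 CPM, and Bnip3, a mitophagy receptor, at 146.1 to 187.6 CPM against 9.29, 10.3 and 49.8 CPM. For both, replicate 3 lay between replicate 1 and replicate 2.

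The DNA methylation list held calls in both directions, with the de novo enzymes among the higher ones. Dnmt3a, Dnmt3b, Dnmt3l and Tet3 were called higher and Tet2, Zfp57 and Prdm14 lower of 16 tested. limma with the block called 2 higher and 2 lower of these, with an adjusted p of 0.142 for Dnmt3l, 0.118 for Tet3 and 0.0888 for Zfp57. Dnmt3l, the catalytically inactive partner of both, was at 152.1 to 209.1 CPM against 54.1, 25.8 and 120.2 CPM. Tet2, a dioxygenase that oxidises methylcytosine, was at 11.9 to 24.3 CPM against 50.2 to 78.3 CPM, and Tet3 at 20.1 to 23.1 CPM against 4.78 to 7.03 CPM. Uhrf1, which guides Dnmt1, was not called, at a log2 fold change of -0.59. Of 22 imprinted genes, 7 were called higher and 2 lower, with 5 and 1 of them 2-fold away from each other replicate, and limma with the block called 2 higher and 1 lower. The maternally expressed non-coding RNAs Meg3 (702.5 to 872.8 CPM) and Rian (208.7 to 280.1 CPM) of one chromosome 12 cluster were at 6.65 to 18.0 CPM and 7.17 to 9.41 CPM in replicate 1, and at 141.5 and 72.6 CPM in replicate 3. Plagl1, an imprinted zinc finger gene, was at 0.815 to 2.12 CPM against 21.8 to 35.7 CPM.

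Lineage genes were mixed. Of 7 neuroectoderm genes tested, 4 were called higher and 0 lower, with Crabp2, a retinoic acid carrier, at 55.7 to 76.9 CPM against 0.596 to 1.48 CPM, and Pax6 at 13.2 to 22.8 CPM against 0.357 to 2.31 CPM. limma with the block called 1 of the 4, with an adjusted p of 0.00867 for Crabp2 and 0.0816 for Pax6. Zic1, Neurog2 and Hes5 were among the genes of that list that did not pass the filter on low counts. Sox1 (24.3 and 29.0 CPM) and Tubb3 (84.3 and 63.3 CPM) did not pass either and are named after their values were seen, since like Sox2 they had counts in replicate 1 and were at 0 in every control plate of replicates 2 and 3. Of 6 mesendoderm genes, 2 were called higher and 3 lower, and limma with the block called 1 and 2. Lefty1, a Nodal antagonist, was at 324.6 to 578.4 CPM against 46.7 to 158.7 CPM, while its neighbour Lefty2 was at 44.7 to 55.3 CPM against 124.8 to 394.8 CPM, and the 2 are similar in sequence, so reads may be split between them. Gsc, goosecoid, had 1 UMI in the 4 plates of replicate 2 and was at 11.3 to 14.7 CPM in the others. T did not pass the filter. Of 8 trophoblast genes, 4 were called lower, and Krt8, a simple epithelial keratin, was at 1.14 to 3.75 CPM against 57.9, 109.6 and 11.2 CPM. limma with the block called 0 of the 4, with an adjusted p of 0.254 for Krt8. In the primitive endoderm list 1 of 11 was called, Sparc, a matrix protein, at 89.5 to 103.1 CPM against 482.1 to 620.4 CPM. Of the 16 fibroblast genes, 8 were tested and 1, Fn1, was called, lower, and it was not called with the block in limma (adjusted p = 0.161). Their summed level was 229.6 to 298.5 CPM in replicate 2, 539.9 and 398.4 CPM in replicate 1 and 291.0 CPM in replicate 3. Col1a1, a defining fibroblast collagen, had a UMI in 8 of 371 wells of replicate 2 (2.16%), 6 of 168 of replicate 1 (3.57%) and 6 of 85 of replicate 3 (7.06%), without thinning.

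Few cell cycle genes were called. Of the 15 G1/S genes edgeR called 0 higher and 0 lower, and of 16 G2/M genes Hmmr alone was called, higher. The sum over the G2/M list was nonetheless 6642 to 6975 CPM in replicate 2 against 3908 and 3421 CPM in replicate 1 and 4874 CPM in replicate 3, with a median log2 fold change of 0.51. Of 13 cohesin genes, Stag2 was called, at 25.3 to 40.4 CPM against 8.41 to 15.3 CPM, and Rad21 was not. With the block in limma the adjusted p was 0.195 for Stag2 and 0.120 for Hmmr. Of 16 p53 targets 1 was called higher and 3 lower, and 0 were 2-fold away from each other replicate or called with the block in limma. The 2-cell-like list had 1 gene past the filter, which was not called. In the remaining lists, calls higher and lower were 2 and 4 of 27 germline genes, 2 and 3 of 13 epithelial genes, 4 and 2 of 14 immediate early genes, and 0 and 1 of 8 mitochondrially encoded genes. With the block these were 1 and 1, 2 and 0, 1 and 0, and 0 and 0 in limma.

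**Figure D4:**
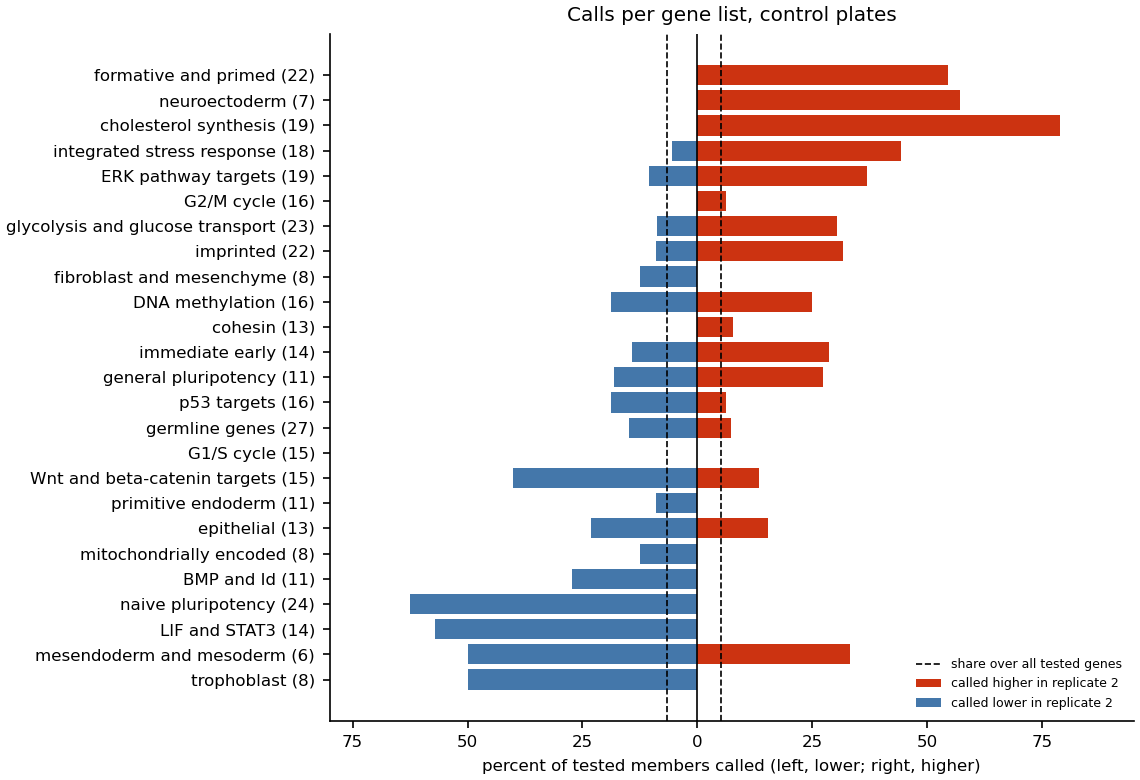
Percent of the tested members of each list (number in brackets) called higher (red, right) or lower (blue, left) in replicate 2, ordered by median log2 fold change, with dashed lines at the shares over all genes, 5.16% higher and 6.53% lower. Cholesterol synthesis with 15 of 19 reaches furthest to the right, and naive pluripotency with 15 of 24 furthest to the left.

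Several of the 12 largest rises and 12 largest falls were in genes outside these lists. Car4, a membrane carbonic anhydrase, was at 41.7, 58.9, 50.0 and 52.1 CPM in replicate 2 and at 0 in all 3 other plates, at least 407-fold higher with a floor of 3 counts over those plates. Pim2, a serine kinase of the same family as Pim3, was at 988.2 to 1432 CPM against 7.86 to 24.9 CPM, and Bcl11a, a zinc finger repressor, at 122.9 to 150.6 CPM against 0.104 to 1.07 CPM. Adra1b, an adrenergic receptor, was at 373.3, 339.0, 758.0 and 1382 CPM, against 0.119, 0 and 18.8 CPM, so that its level also varied between plates of replicate 2 (adjusted p = 0.0142 from edgeR, 0.228 with the block in limma). Among the genes that were lower, Saa3, an acute-phase protein, was at 0.0816 to 0.897 CPM against 86.0, 164.2 and 42.9 CPM, Mras, a RAS-related GTPase, at 0.326 to 2.03 CPM against 95.8 to 109.0 CPM, and the junction protein Jam2 at 6.12 to 12.3 CPM against 351.9 to 444.0 CPM. Aqp3, a water and glycerol channel, was at 1.71 to 5.17 CPM against 148.4 to 190.8 CPM, and Msc, a helix-loop-helix repressor, at 0.325 to 1.63 CPM against 129.6, 138.5 and 32.8 CPM. Sys1 also belongs to the 12 largest falls, but at 1.32 CPM in replicate 3 and 0.406 to 1.14 CPM in replicate 2 its change rests on replicate 1.

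The same contrast can be drawn in the plates treated with 500 μM auxin for 6 h, 4 of replicate 2 against 2 of replicate 1 and 1 of replicate 3, which are other wells of the same 3 replicates. There 2101 of 16578 genes (12.7%) were called, 1033 higher (6.23%) and 1068 lower (6.44%), and of the 1864 control calls that were tested there 1234 (66.2%) were called in the same direction. Nanog was at 28.3 to 47.6 CPM against 495.3 to 576.6 CPM, and Otx2 at 73.5 to 148.4 CPM against 1.94 to 12.5 CPM. Of the naive genes 17 of 24 were called lower, of the formative genes 14 of 22 higher and of the cholesterol genes 15 of 19 higher. The stress response list had 4 higher and 1 lower of 18 there, with Mthfd2 at a log2 fold change of 0.56 (adjusted p = 0.0664 from edgeR). Whether control and auxin-treated plates differ in these counts was not tested.

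Single wells show how the plate values are made up. Each well was thinned to 20000 UMIs, and 9 kept wells below that depth over all plates were left out. Nanog had a UMI in 49.3% of the 363 wells of replicate 2 (exact 95% interval 44.1 to 54.6%, for counting error only), against 96.4% of 168 wells in replicate 1 and 97.6% of 84 wells in replicate 3. Klf4 had one in 3.58%, 69.6% and 51.2% of the wells of replicates 2, 1 and 3, and Zfp42 in 55.9%, 94.0% and 89.3%. Otx2 had one in 72.2%, 13.1% and 3.57% of them, Lef1 in 88.7%, 1.79% and 10.7%, and Dnmt3a in 96.7%, 11.9% and 31.0%. Without thinning, where the median depth of replicate 2 was the highest, 127 of its 371 wells (34.2%) had no Nanog UMI while the mean was 7.75 and the highest well had 73. In replicate 1 and replicate 3, 1 well each was without a Nanog UMI. In thinned wells the mean was 1.12 Nanog UMIs in replicate 2, 9.88 in replicate 1 and 9.55 in replicate 3, and the variance over the mean was 2.42, 4.07 and 4.90.

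List members were also counted per well. A well of replicate 2 had a UMI of 9 of the 24 naive genes at the median (range 1 to 18), against 15 in replicate 1 and 17 in replicate 3, and of 9 of 22 formative genes (range 1 to 15), against 3 and 4. More naive than formative members were detected in all 168 wells of replicate 1 and all 84 of replicate 3. In replicate 2 this was so in 148 of 363 wells (40.8%), while 178 (49.0%) had more formative members. The shares with more naive members were 49.5, 40.2, 33.7 and 39.6% in plates A to D. The 24 naive members include 9 that were not called, such as Tdgf1 and Dppa4, and the 22 formative members include 10. These numbers therefore do not sort wells into naive and formative ones. Nanog and Otx2 were both detected in 133 wells of replicate 2 (36.6%), Nanog alone in 46, Otx2 alone in 129 and neither in 55, and both were detected in 13.1% of wells of replicate 1 and 3.57% of replicate 3. Zfp42 and Dnmt3b were both detected in 52.6%, 27.4% and 36.9% of the wells of replicates 2, 1 and 3, Tfcp2l1 and Lef1 in 4.96%, 1.19% and 9.52%, and Klf4 and Otx2 in 2.48%, 8.93% and 3.57%. Wells with both a naive and a formative transcript were thus found in all 3 replicates. Across the wells of a plate, the 2 numbers of members had a Spearman correlation between -0.23 and -0.02 in replicate 2 and between 0.10 and 0.19 in the other plates, values near 0 over 81 to 93 wells that share a plate and a depth.

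**Figure D5:**
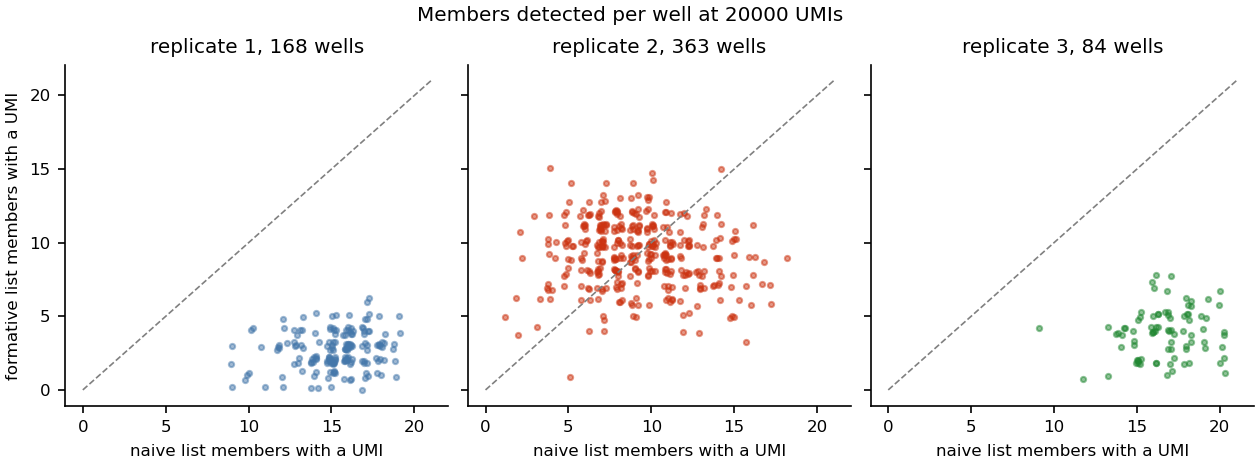
Number of naive list members (x) and formative list members (y) with a UMI in each control well thinned to 20000 UMIs, with points moved at random by up to 0.3 for sight and a dashed line where the numbers are equal. All wells of replicates 1 and 3 lie below the line, and the 363 wells of replicate 2 lie on both sides of it, 178 of them above.

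Over genes of 20 CPM or more, the chromosome medians of the log2 ratio of replicate 2 over 3, relative to the median of all such genes, lay between -0.15 on chromosome 16 and 0.16 on chromosome 13. Those of replicate 2 over 1 lay between -0.35 on chromosome 18 and 0.22 on chromosome 11. Those of replicate 3 over 1 had their extremes on the same chromosomes, -0.32 on chromosome 18 and 0.27 on chromosome 11. There, replicate 2 over 3 was at -0.050 and -0.058.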

How the data were processed

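Smart-SCRB libraries of 96-well plates were aligned to mm10 by the authors; the aligner and counter are not given in the sources used here. The deposited values are raw UMI counts per gene and well, with no filter on wells, beside the percent of ERCC spike-in counts per well and the fraction of repeated UMIs (saturation) per plate, both computed by the authors. Saturation was 0.541 to 0.563 in replicate 2, 0.283 and 0.298 in replicate 1 and 0.492 in replicate 3.

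Mouse gene counts of the kept wells were summed per plate. The 4 sums of replicate 2 were tested against the 3 others with edgeR 4.0.16 in R 4.3.3 (TMM factors, filterByExpr, quasi-likelihood test, Benjamini-Hochberg). limma 3.58.1 with the replicate as a random block (correlation 0.527) and DESeq2 1.42.0 were alternatives. On simulated counts of 17070 genes, all drawn with 1 dispersion of 0.22, edgeR recovered 2.86% of 2-fold, 38.6% of 4-fold and 100% of 16-fold changes. The genes of these data differ in their spread, so those shares do not give what was missed here. The members and the gene lists were chosen with earlier results of these data known. Named genes were the 4 markers, up to 4 called members per direction and up to 2 uncalled ones of highest mean CPM in each of 26 lists, and the 12 largest rises and falls of at least 20 CPM. Some named genes are not reported here. Gene positions and overlaps came from GENCODE on GRCm38 and promoters from RefSeq.

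A second annotated control plate of replicate 3 was left out of the main test because the annotation and the study's source data disagree on 2 plates of that replicate.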

Additional observations from a re-analysis of the deposited data

Results flagged for a closer look

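Among 84 sets of 4 replicate 2 plates tested, 10 held a plate set apart from the other 3 beyond Dixon's 95% critical value, and chance flags about 1 in 20. The plates were A for Nanog (61.6 CPM), Dkk1 (0.492 CPM), Prdm14 (9.43 CPM) and Nes (30.0 CPM), B for Cdx1 (1.79 CPM), C for Utf1 (206.0 CPM), and D for Tdgf1 (703.3 CPM), Dnmt3b (655.9 CPM), Msx2 (2.28 CPM) and Gsc (0.0815 CPM). The 4 plates are of 1 replicate, and for the called genes among these each plate stayed on its own side of the other replicates. Gsc was at 0 CPM in plates A to C, where any single UMI is flagged, and Dkk1 was at 0 CPM in plates C and D. The rate of 1 in 20 does not apply to genes so near the limit of counting.

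Rows for sequences outside the mouse genome held UMIs in the control wells. FLP had 36 UMIs in plate E and 0 in the other 6 plates. WPRE had 34, 21, 50 and 7 UMIs in plates A to D, 11 in plate E, 1 in plate F and 6 in plate G.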

How the results depend on the processing

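No paired analysis was possible because the sides share no replicate number. Against 1946 calls (859 higher, 1087 lower), limma with the replicate as a random block called 457 (184 and 273), scaling by ERCC spike-ins gave 449 (198 and 251), and replicate sums, 1 against 2, gave 0 (607 at an unadjusted p under 0.05). Replicate 1 alone as the other side gave 7347 (4747 and 2600), and DESeq2 gave 1334 higher of 2530. Leaving out 1 plate gave 1246 to 7347 calls, 473 to 4747 higher and 773 to 2600 lower. The highest of each came without plate G, which leaves replicate 1 alone, and the lowest without plate C. Spike-in scaling moved the median log2 fold change of all genes from 0.10 to 0.32. Calls in the naive list fell from 15 to 8 with spike-ins and 0 with replicate sums, and in the formative list from 12 to 0 with replicate sums. Of 74 named called genes, none changed sign under these settings, while 29 lost the threshold with spike-ins and 22 with limma's block. With 1 sum against 2 the lowest adjusted p of any gene was 0.53, so that setting says nothing about single genes or lists. The causes were not tested.

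Genes that were not called changed sign: Tdgf1 to 0.018 with replicate 3 alone and 0.079 with spike-ins, Ier2 to 0.25 and 0.074 with the same settings, and Sc5d to -0.061 with replicate 1 alone, that is without plate G. Etv5 went to -0.097 with replicate sums, -0.0044 with limma, -0.41 with replicate 3 alone and -0.016 with a second plate of replicate 3 added, and to between -0.17 and 0.30 on leaving out 1 plate.

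Shares of wells with a UMI depend on depth. Unthinned, Nanog was in 99.4% of replicate 1 and 65.8% of replicate 2 wells, Klf4 in 86.9%, 7.01% and 68.2% of replicates 1, 2 and 3, Zfp42 in 98.8%, 75.2% and 96.5%, and Otx2 in 22.02% of replicate 1 and 84.1% of replicate 2. At 50000 UMIs Nanog was in 98.7%, 69.6% and 100% of replicates 1, 2 and 3, Klf4 in 84.2% of replicate 1 and 62.5% of replicate 3, Zfp42 in 99.4% of replicate 1 and 74.6% of replicate 2, and Otx2 in 87.1% of replicate 2. The order of the replicates for these markers stayed with replicate 2 lowest for Nanog, Klf4 and Zfp42 and highest for Otx2.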

Other observations

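The annotation and the study's source data disagree on the treatment of 2 further plates of replicate 3, named H (control in the annotation) and I (auxin in the annotation) here, and they entered no comparison of the report itself. Plate H was added to the other side in 1 alternative. Nanog was at 430.2 CPM in plate H and 511 CPM in plate I, Klf4 at 71.9 and 33.3 CPM, Zfp42 at 218.5 and 221.7 CPM, and Otx2 at 4.51 and 0.483 CPM. For all 4 markers both plates lay on the same side of the control plates of replicate 2 as plate G.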
